A study of Mus musculus with 4 samples.

Results

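The zinc finger gene cluster on distal chromosome 4 was taken as every accessible region that touches chr4:145000000-148000000 on mm10, once peaks that shared 1 bp or more had been joined across libraries. It held 1025 of the 10324 regions of chromosome 4 and of the 560228 regions of the genome. The regions come from ATAC-seq, in which the transposase Tn5 cuts exposed DNA, of mpkCCD clone 11 cells, a mouse kidney line derived from collecting duct epithelium. The cells were grown to confluence on permeable supports, moved to medium free of serum and hormones and given 0.1 nM dDAVP, a V2-selective vasopressin analog, or vehicle for 30 minutes. Each treatment had 2 libraries of 50000 cells, and since the labels name no separate cultures, replicate spread, and any p-value that rests on it, may be technical only. Every group is the same clone, and a peak in such a bulk library cannot tell a site open in a few cells from one open in all. The start sites of Aqp2, Gata3 and Krt8, which mark collecting duct principal cells and simple epithelium, had a peak within 1 kb in all 4 libraries. So did 64.6% of all protein-coding genes, and no other marker was checked.

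The window was chosen by its number of peaks, with that number already known, so its density is given as a description, with no test. Of its 28 protein-coding genes in the RefSeq table, 17 are zinc finger genes by name (16 named Zfp, and Rex2). They run from Zfp990 at 145510759 to Zfp933, which ends at 147849126. Of the other 11, Vps13d, Tnfrsf1b, Tnfrsf8 and Gm42346 lie before them, Gm13212 lies between Zfp990 and Zfp980, and Miip, Fv1, Mfn2, Plod1, 2510039O18Rik and Nppb lie after them. At the edges, 1 region in Vps13d (chr4:144999512-145000446) straddles the first bound. The 1 Mb before the window held 76 regions and the 1 Mb after it 154.

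Zinc finger genes of the Krüppel type form clusters in mammalian genomes that grew by repeated tandem duplication. Many of those in such clusters encode proteins with a KRAB domain, which recruits the corepressor Trim28 and the histone methyltransferase Setdb1, and with a row of C2H2 fingers that reads DNA, often in retroelements. The chromosome 4 cluster is known for this lineage-specific expansion, and Zfp979 carries the synonym Ssm1b, a modifier of transgene methylation.

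The start sites of most of these genes have promoter sequences that resemble each other. RefSeq promoter entries (250 bases before to 50 after a start, GRCm38.p6) were matched for 13 of the 17 zinc finger genes. Zfp990, Zfp992, Zfp978 and Zfp991 had no entry. The stretches below are shown because their likeness bears on every value at these starts. Each runs 5′ to 3′ along the gene, from 50 bases before to 70 bases after the letters ATTGGGCG, which are in capitals.
Zfp600: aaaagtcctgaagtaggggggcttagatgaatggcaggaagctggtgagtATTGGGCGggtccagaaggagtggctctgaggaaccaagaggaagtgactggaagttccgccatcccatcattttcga
Rex2: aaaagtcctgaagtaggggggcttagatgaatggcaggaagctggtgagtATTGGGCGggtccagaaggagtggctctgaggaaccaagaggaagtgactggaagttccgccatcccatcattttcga
Zfp979: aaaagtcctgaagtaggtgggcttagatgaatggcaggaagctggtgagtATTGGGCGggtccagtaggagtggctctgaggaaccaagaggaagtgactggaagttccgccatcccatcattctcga
Zfp987: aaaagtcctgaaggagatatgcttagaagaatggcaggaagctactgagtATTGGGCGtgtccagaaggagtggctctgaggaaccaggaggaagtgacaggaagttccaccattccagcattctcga
Zfp985: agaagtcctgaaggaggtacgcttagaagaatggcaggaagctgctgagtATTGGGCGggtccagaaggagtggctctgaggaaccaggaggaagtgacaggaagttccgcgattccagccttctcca
Zfp981: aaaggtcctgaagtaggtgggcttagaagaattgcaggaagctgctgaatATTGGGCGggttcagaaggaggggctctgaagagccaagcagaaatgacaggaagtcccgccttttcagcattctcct
Zfp984: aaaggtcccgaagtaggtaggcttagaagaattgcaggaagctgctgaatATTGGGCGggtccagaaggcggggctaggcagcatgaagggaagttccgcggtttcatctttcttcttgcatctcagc
Zfp600 is shown from chr4:146156710-146156837 (plus strand). Rex2 is shown from chr4:147021733-147021860 (plus strand). Zfp979 is shown from chr4:147642504-147642631 (minus strand). Zfp987 is shown from chr4:146097179-146097306 (plus strand). Zfp985 is shown from chr4:147553159-147553286 (plus strand). Zfp981 is shown from chr4:146514775-146514902 (plus strand). Zfp984 is shown from chr4:147809797-147809924 (minus strand).

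The 8 letters lie 38 to 95 bases before the annotated start. They hold the complement of a CCAAT box, the core bound by the NF-Y complex, running into GGGCG, which becomes a GC box where a further G follows. On either strand ATTGGGCG was found at 11 of 13 zinc finger genes of the window (84.6%), at 5 of 311 Zfp genes on other chromosomes (1.61%) and at 152 of all 17492 protein-coding genes with a promoter entry (0.869%). No rule apart from these promoters chose the letters counted here and below, so such shares are a description and were not tested. The letters CTAATTAA, whose place in the promoter entries was not measured, were at 11 of 13 genes of the window. They were at 0 of 311 Zfp genes elsewhere and at 0.652% of all genes. The full GC box GGGCGG was at 9 of 13, against 49.2% of all genes. The full cAMP response element TGACGTCA was at 0 of 13, against 2.54% of all genes, which says only that these letters are not in these windows.

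Gm13212, a gene of the cluster without a zinc finger name, carries the letters too, so that 12 promoters of the window hold them. Over the 66 pairs of these 12, identity in the stretch of 128 bases ran from 71.3% to 100% with a median of 87.7%. Zfp600 and Rex2 were identical, and Zfp987 and Zfp534 were 99.2% identical. The 11 matches are therefore not independent of each other. Zfp933, at the distal edge, and Zfp993 do not carry it.

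Because the reads were 50 bases long, each promoter was searched for stretches of 50 bases that occur exactly in the promoter of another gene. Rex2 shared 97.6% of its stretches, Zfp600 94.0%, Zfp987 47.0%, Zfp534 46.2% and Zfp979 24.3%. The median of the 13 zinc finger genes was 10.4%, and 11 of 13 shared at least 1 stretch, against 9.87% of all protein-coding genes. The rules differ, since genes of the window count by the start with the highest share and all genes by their first-listed start. Zfp982 had 0% at its first-listed start and 13.5% at another. A read that falls wholly in such a stretch fits more than 1 place. How the authors placed such reads is not given in the sources used here, and the part of copied sequence in the peaks described next was not tested.

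Peaks were packed along the cluster in every library. The window held 828 peaks in vehicle replicate 1, 765 in dDAVP replicate 1, 760 in vehicle replicate 2 and 766 in dDAVP replicate 2. In that order, and with each peak placed by its midpoint, the density was 276, 255, 253 and 255 peaks per Mb in the window and 43.0, 34.3, 28.6 and 29.5 peaks per Mb on the rest of chromosome 4. The ratio of the densities was 7.84 ± 1.13 (SD, n = 4 libraries), from 6.42 in vehicle replicate 1 to 8.85 in vehicle replicate 2. Chromosome 4 is itself uneven, and against the 38.4 Mb of its distal part outside the window the ratio was 4.40 ± 0.957 (SD, n = 4). Peaks covered 11.5%, 10.5%, 10.6% and 10.0% of the window, and 1.64%, 1.39%, 1.26% and 1.29% of the rest of the chromosome.

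Peak width differed much less than peak number. Median peak width in the window was 299, 276, 319 and 266 bp in the same order of libraries, and 245, 254.5, 286 and 278 bp on the rest of the chromosome, so that dDAVP replicate 2 had narrower peaks inside than outside. The median distance between neighbouring regions was 1.53 kb in the window and 5.24 kb outside. Of the 154 bins of 1 Mb on chromosome 4, the 3 of the window ranked 1, 2 and 3, with 443, 319 and 262 regions. The next held 245 and the median bin 41.5.

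**Figure D1:**
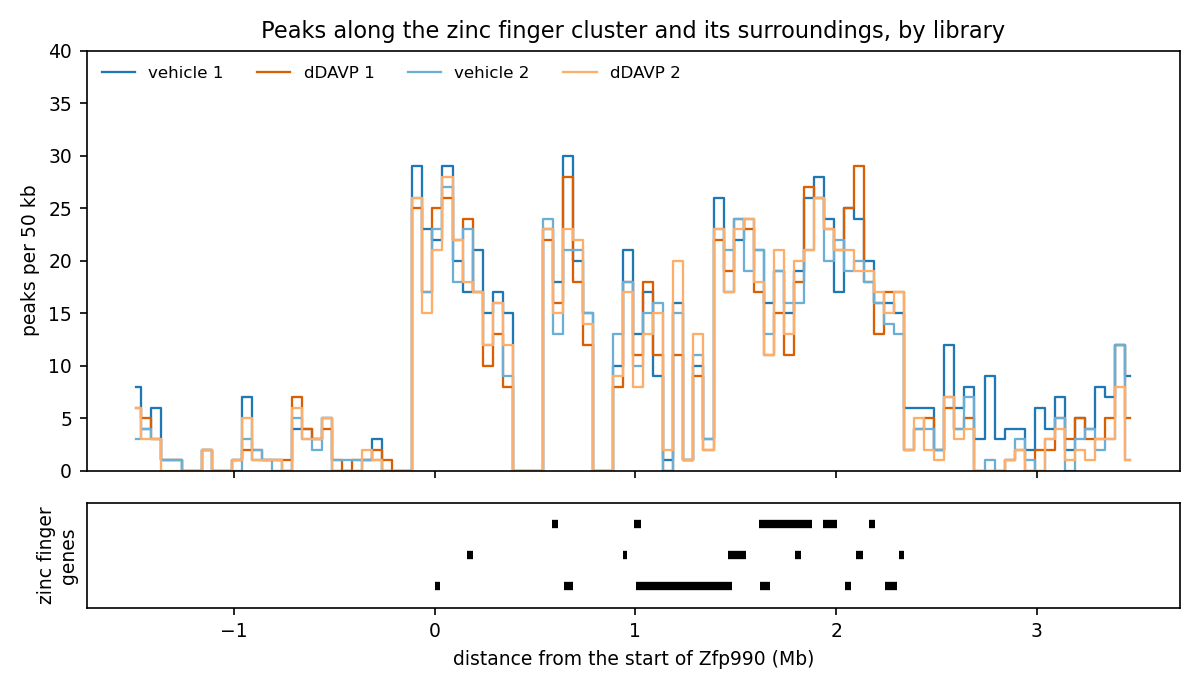
Peaks per 50 kb (vertical axis) against distance from the start of Zfp990 in Mb, 1 line per library, with the zinc finger genes as bars below. The counts step up shortly before Zfp990 and step down at the end of the last gene, and 2 stretches inside the cluster are at 0 in all 4 libraries.

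The dense stretch had sharp edges that lay close to those of the gene cluster. Of the 60 bins of 50 kb in the window, 41 had 10 or more regions, all of them between 145400001 and 147850000, and these held 14 to 37 regions with a median of 24. On the proximal side a stretch of 131 kb without a peak in any library (chr4:145269089-145400391, over most of Tnfrsf8 and its start) was followed at once by the dense stretch. That stretch took in Gm42346 before the first gene with a zinc finger name. On the distal side it ended with Zfp933, and the bins from Miip to Nppb held fewer than 10 regions each. The longest peak-free stretches were inside the cluster, 153 kb at chr4:145896765-146050137 between Zfp980 and Zfp987 and 133 kb at chr4:146292666-146425682 between Zfp600 and Zfp992. The RefSeq table lists no gene or pseudogene of any kind in either of them.

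Zinc finger genes and the spaces between them were nearly alike. The genes, which merge into 13 stretches of 1.23 Mb in all, held 335, 315, 307 and 315 peaks per Mb (vehicle replicate 1, dDAVP replicate 1, vehicle replicate 2 and dDAVP replicate 2). The 12 spaces, 1.11 Mb in all, held 303, 282, 288 and 289 in the same order. They are not free of genes, since they take in Gm13212 of the promoter family and many pseudogenes. The ratio was 1.1 ± 0.0223 (SD, n = 4), and the genes were the denser in all 4 libraries when every base of both sets was counted. The spaces include both long peak-free stretches, and the space from Zfp980 to Zfp987 (272 regions per Mb) and that from Zfp600 to Zfp992 (208 regions per Mb) were the sparsest. Over the 12 spaces the median was 530 regions per Mb, with the highest value, 860, between Zfp985 and Zfp979. Over the 17 genes the median was 449 regions per Mb, so that by the median the spaces were the denser. Zfp993 also holds peak-free stretches, of 52.9 and 52.3 kb. The ratio of genes to spaces without peak-free stretches was not computed.

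Single genes ranged widely. Zfp600 was the densest, with 29 regions in 41.9 kb (692 per Mb), followed by Zfp979 with 20 regions in 30.6 kb (654 per Mb) and Zfp980 with 22 in 33.7 kb (652 per Mb). The sparsest was Zfp933, the gene outside the promoter family at the distal edge, with 6 regions in 26.1 kb (230 per Mb). Zfp993, annotated over 479 kb, held 140 regions, and Zfp978, annotated over 267 kb, held 120. Both annotations overlap other zinc finger genes (Zfp981 and Rex2 in the first, Zfp991 and Zfp988 in the second), so some regions count for more than 1 gene.

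**Figure D2:**
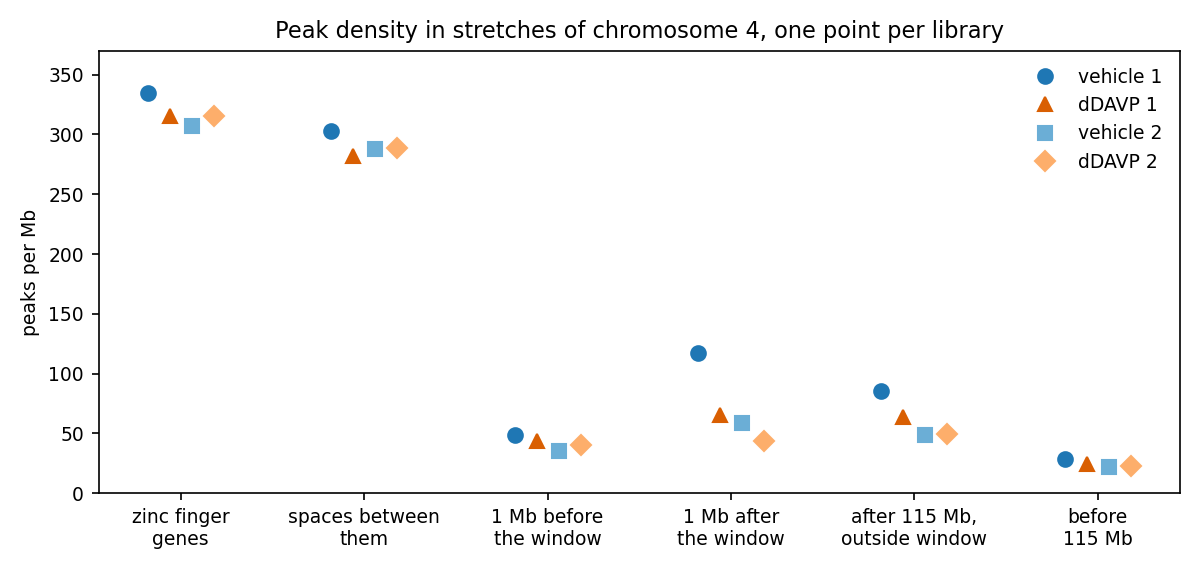
Peaks per Mb (vertical axis) in zinc finger genes, the spaces between them, the 1 Mb on either side of the window and the distal and proximal parts of chromosome 4, with 1 point per library. The lowest point for genes or spaces is 282 per Mb, and the highest outside the window is 117 per Mb.

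The window also holds 56 annotated pseudogenes. Of these, 42 were touched by a region present in all 4 libraries, against 33 of 537 on the rest of chromosome 4, and their median lengths were 0.918 and 1.01 kb. The 42 include 5 of 6 pseudogenes of the vomeronasal receptor family Vmn2r. Of these, Vmn2r-ps15, Vmn2r-ps16 and Vmn2r-ps17 are annotated over far more than the median length and each take in many regions. Regions present in all 4 libraries numbered 152 per Mb in the window at large and 16.4 per Mb on the rest of chromosome 4. Whether pseudogenes differ from other sequence of the window was not tested. The region with the largest mean covered width, chr4:147335099-147338599 inside Zfp978, had 2808 bp covered in vehicle replicate 1, 2671 in dDAVP replicate 1, 2633 in vehicle replicate 2 and 1833 in dDAVP replicate 2. It was followed by chr4:147518316-147521226, 2.25 kb past Zfp982 (2409 ± 420 bp), and chr4:146454079-146456736 inside Zfp992 (2256 ± 405 bp, both SD, n = 4). The others of the 10 widest included regions in the pseudogenes Vmn2r-ps17 (2221 ± 669 bp) and Vmn2r-ps16, 1 inside Zfp982, and 4 more outside annotated genes. So 3 of the 10 lay inside a zinc finger gene.

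At the annotated starts, nearly every zinc finger gene had a peak. A peak lay within 1 kb of a start in all 4 libraries at 12 of the 13 zinc finger genes with an entry (92.3%), against 64.6% of all protein-coding genes. The exception, Zfp534, lacked one in dDAVP replicate 1. Zfp genes on other chromosomes had such a peak at 277 of 311 (89.1%), the 8 Zfp genes elsewhere on chromosome 4 at 7, and the other coding genes of the chromosome at 619 of 1036 (59.7%). Peaks are so dense in the cluster, however, that 39.6% of all positions between the first and the last zinc finger gene lie within 1 kb of a peak in all 4 libraries, against 4.08% on the rest of chromosome 4. A stricter count was therefore added, of starts whose first base lies inside a peak.

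By that count the share in the cluster was below that of the other Zfp genes, a difference that was not tested. The start base was inside a peak in all 4 libraries at 6 of the 13 genes (46.2%), against 263 of 311 Zfp genes on other chromosomes (84.6%), 574 of 1036 other coding genes of chromosome 4 (55.4%) and 54.7% of all genes. The 6 were Zfp600, Zfp981, Rex2, Zfp985, Zfp984 and Zfp933. Of positions taken at large, 5.90% in the cluster and 0.749% on the rest of the chromosome were inside a peak in all 4 libraries. Within 200 bp of the 16 annotated zinc finger starts, peaks covered 47.9%, 42.4%, 47.9% and 44.4% of bases (vehicle replicate 1, dDAVP replicate 1, vehicle replicate 2 and dDAVP replicate 2). From 2 to 5 kb away they still covered 17.4%, 13.2%, 14.3% and 11.6%. Around 1337 other starts of chromosome 4 the values near the start were alike, 54.8%, 52.4%, 50.0% and 49.9%, but those from 2 to 5 kb away were 2.30%, 1.94%, 1.86% and 1.88%.

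**Figure D3:**
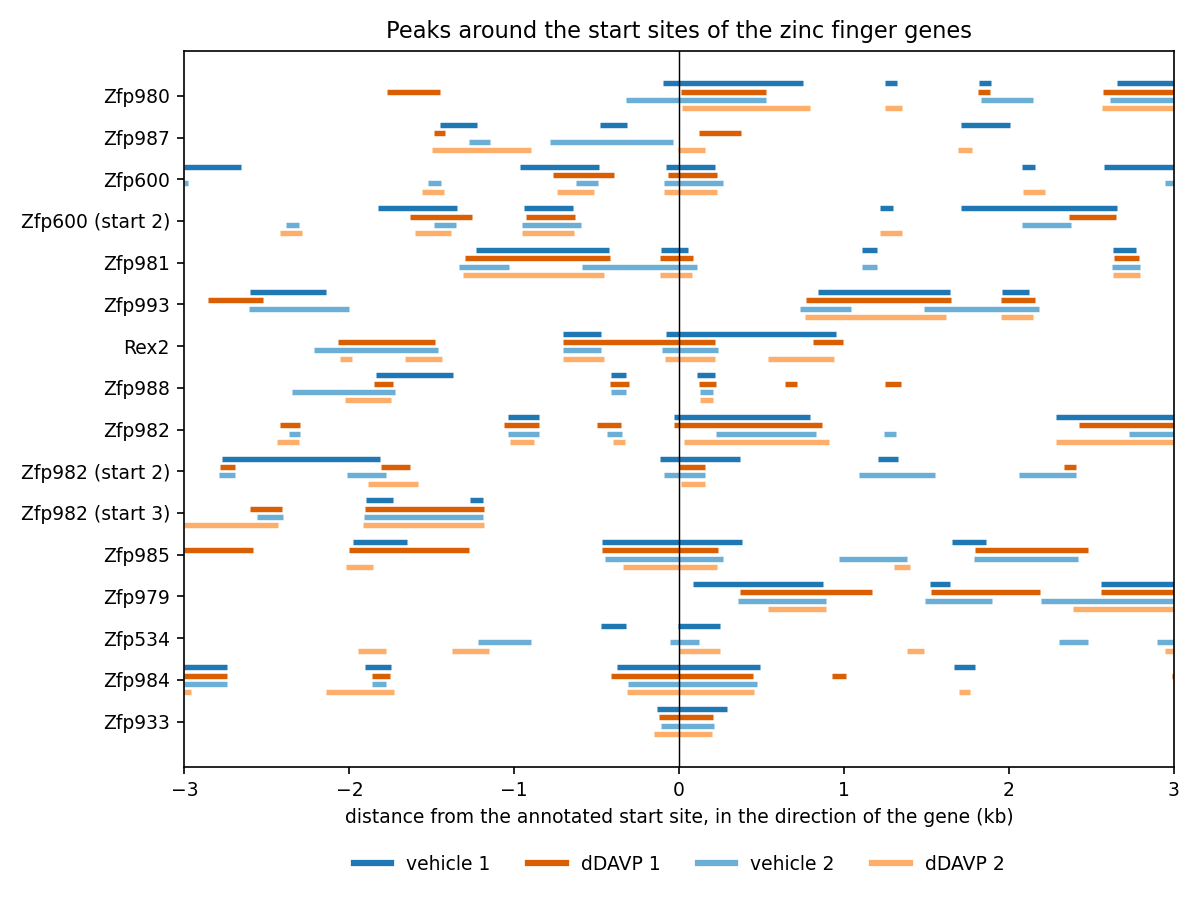
Peaks within 3 kb of 16 annotated start sites of the zinc finger genes, 1 bar per peak and library, against distance from the start in kb in the direction of the gene. Peaks of all 4 libraries span the start of Zfp985, Zfp984 and Zfp933, while the nearest peaks of Zfp993 and Zfp979 begin downstream of it.

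Genes of the promoter family did not look alike at their starts. Zfp984 had 1 wide peak over its start in every library, of 869 bp in vehicle replicate 1, 863 in dDAVP replicate 1, 783 in vehicle replicate 2 and 771 in dDAVP replicate 2 (822 ± 51.7 bp, SD, n = 4). Zfp985 had peaks of 852, 702, 713 and 573 bp in the same order (710 ± 114 bp, SD, n = 4). The treatments overlap at Zfp984, while at Zfp985 both dDAVP widths were below both vehicle widths. The peak at the start of Zfp600, whose promoter is shown above, was narrow in every library, at 300, 296, 357 and 318 bp (318 ± 27.9 bp, SD, n = 4).

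Rex2, whose printed stretch is identical to that of Zfp600, had peaks of 1034, 927, 339 and 308 bp. The wide peaks were those of replicate 1 of both treatments. They extended in different directions. Counted from the start site, the peak ran from -80 to 953 bp in vehicle replicate 1 and from -707 to 219 bp in dDAVP replicate 1. A further peak lay upstream of both genes in every library in which it was separate. For Zfp600 it began at -964, -767, -625 and -738 bp, and for Rex2 at -706 bp in vehicle replicate 1, -705 bp in vehicle replicate 2 and -706 bp in dDAVP replicate 2. Since Rex2 shares 97.6% and Zfp600 94.0% of the 50-base stretches of their promoters with another gene, peaks at these starts cannot be assigned to 1 of them with certainty.

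Several other members of the family had their nearest peak beside the start rather than over it in 1 or more libraries. At Zfp979 the nearest peaks were 786, 805, 535 and 353 bp wide, and they began 85, 367, 357 and 538 bp after the start, so that the printed stretch lay outside them. At Zfp988 they were the narrowest of all, 112, 105, 77 and 82 bp, and began 107 to 128 bp after the start. Zfp980 had peaks of 850, 519, 853 and 777 bp, and only those of the 2 vehicle libraries reached the start base, since the dDAVP peaks began 9 and 15 bp after it. Zfp987 had peaks of 164, 258, 748 and 165 bp, of which only that of dDAVP replicate 2 held the start base. Over the 12 promoters of the family, the ATTGGGCG letters themselves lay inside a peak at 8 in vehicle replicate 1, 5 in dDAVP replicate 1, 10 in vehicle replicate 2 and 6 in dDAVP replicate 2. They were inside a peak in all 4 libraries at 5, Gm13212, Zfp981, Rex2, Zfp985 and Zfp984, and in no library at Zfp988 and Zfp979.

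The zinc finger genes outside the family, Zfp933 and Zfp993, had different patterns at their starts. Zfp933 had a narrow peak over its start in every library, of 428, 327, 324 and 351 bp. At Zfp993, whose entry rests on a predicted transcript, the nearest peaks of 806, 879, 305 and 858 bp began 736 to 841 bp after the start. Zfp982 has 3 annotated starts. The most distal, at 147500686, had no peak within 1 kb in any library, and the other two had one in all 4.

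The other genes of the window were mostly typical single promoters. A start peak was present in all 4 libraries at 8 of the 10 with an entry. Vps13d, which encodes a lipid transfer protein, had peaks of 726, 1030, 840 and 871 bp. Mfn2, a mitochondrial fusion GTPase, had peaks of 905, 1020, 676 and 827 bp. Fv1, itself a gene of retroviral origin that restricts murine leukaemia virus, shared 1 peak with the start of its neighbour Miip (894, 962, 971 and 866 bp). Tnfrsf8, which encodes the lymphoid receptor CD30, had none, and Tnfrsf1b, a TNF receptor gene, had narrow peaks of 165 and 166 bp in replicate 1 of either treatment and none in replicate 2. At Nppb, the gene of B-type natriuretic peptide, peaks of 580, 238, 125 and 158 bp lay upstream, and only that of vehicle replicate 1 reached the start. Gm13212, the family member without a zinc finger name, had peaks of 759, 823, 706 and 545 bp over its start.

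The other Zfp clusters compared were less dense in peaks. The 3 windows of 3 Mb with the most Zfp genes on other chromosomes were chr13:65000001-68000000 with 25, chr7:27500001-30500000 with 24 and chr17:21000001-24000000 with 23. Their peak density was 0.855 ± 0.186, 2.94 ± 0.33 and 1.04 ± 0.163 times that of the rest of their chromosome (SD, n = 4 libraries each), against 7.84 ± 1.13 on chromosome 4. These ratios rest on unlike backgrounds. The mean over libraries was 47.9, 107 and 122 peaks per Mb in the 3 clusters, against 260 in the chromosome 4 window. On the rest of their chromosomes it was 59.4, 36.0 and 123 peaks per Mb, against 33.8 on chromosome 4. No library of any of the 3 reached the lowest value of the chromosome 4 window, 6.42. A start peak in all 4 libraries was present at 19 of 21, 22 of 23 and 21 of 21 of their Zfp genes with an entry. The difference was not tested, since the chromosome 4 window was chosen for its density.

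**Figure D4:**
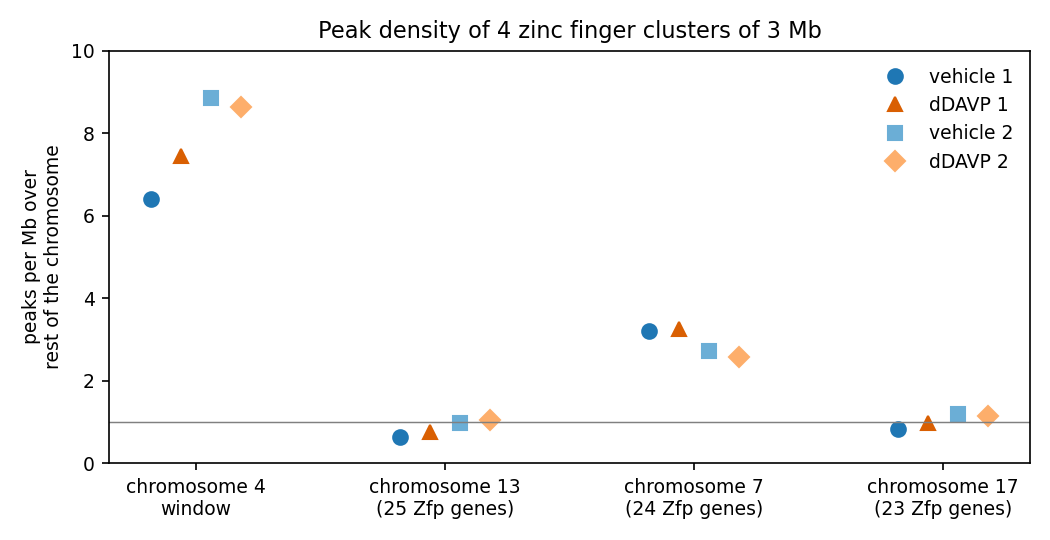
Peak density of 4 zinc finger clusters of 3 Mb over that of the rest of their chromosome (vertical axis), with 1 point per library and a line at 1. The chromosome 4 points run from 6.42 to 8.85, and the highest point of the other clusters is 3.25, on chromosome 7.

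Genes through which KRAB zinc finger proteins act were open at their starts. All 22 of those listed that have an entry, among them Trim28, Setdb1, Cbx5, Atf7ip, Dnmt1, Uhrf1 and the HUSH subunits Tasor, Mphosph8 and Pphln1, had a peak within 1 kb in all 4 libraries, against 64.6% of all protein-coding genes. Accessibility at a start does not measure expression, which was not analysed here.

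The 4 libraries shared more of their regions in the cluster than over the genome, which is given as a description since the same peaks chose the window. Of the 1025 regions, 458 were present in all 4 libraries (44.7%), against 15.7% of all regions of the genome and 26.5% on the rest of chromosome 4. In 1 library only there were 264 (25.8%), against 53.1% in the genome. The lists as a whole differed 1.91 times in length, from 205771 peaks in dDAVP replicate 2 to 393956 in vehicle replicate 1, and the numbers on the rest of chromosome 4 differed 1.5 times. In the window they differed 1.09 times. Where a longer list comes from is not shown by positions alone, and depth is unknown.

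**Figure D5:**
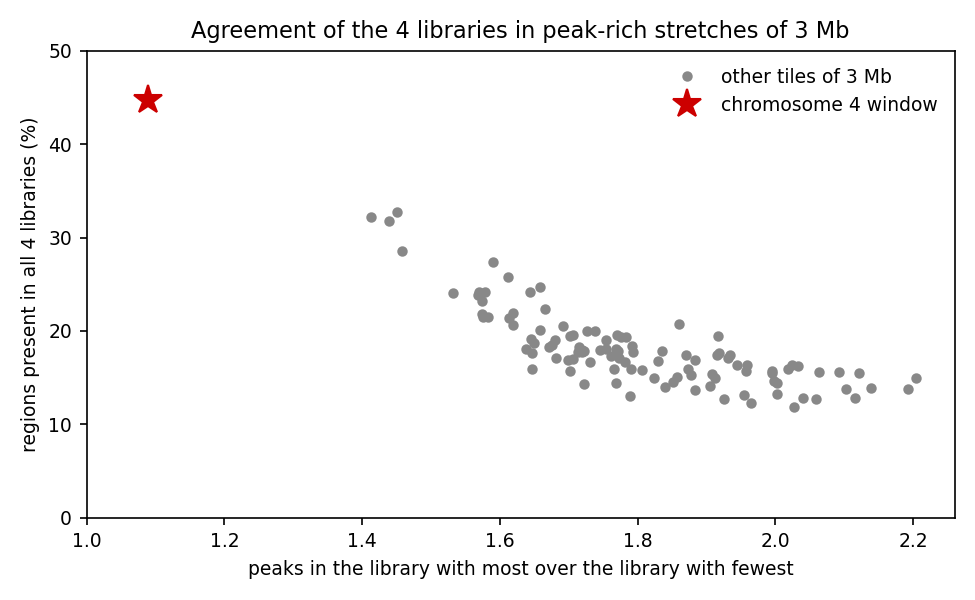
Share of regions present in all 4 libraries in percent (vertical axis) against the ratio of the library with most to the library with fewest peaks, for the window and 108 other stretches of 3 Mb with at least 500 peaks in every library. The window lies at 1.09 and 44.7%, and the other stretches lie between 1.41 and 2.20 and between 11.8% and 32.8%.

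The study's comparison was of dDAVP with vehicle after 30 minutes, at the vasopressin V2 receptor of these cells. In the cluster the number of peaks did not separate the treatments. The vehicle libraries had 828 and 760 peaks and the dDAVP libraries 765 and 766, so that both dDAVP values lay between the vehicle values. The means were 765.5 ± 0.707 after dDAVP and 794 ± 48.1 with vehicle (SD, n = 2 each), a ratio of 0.964 (exact two-sided permutation p = 1). As a share of the chromosome 4 peaks of each library the ratio was 1.05, the opposite direction (exact permutation p = 1). Without vehicle replicate 1 the ratio of numbers was 1.01.

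Covered length in the window did separate them, taken without regard to list length. It was 346.4 and 319 kb in the vehicle libraries and 314 and 301.8 kb in the dDAVP libraries, with means of 333 ± 19.4 and 308 ± 8.61 kb (SD, n = 2 each) and a ratio of 0.925. The groups do not overlap, and the exact two-sided permutation p of 0.33 is the smallest that 2 against 2 can give. With only the widest peaks of each library, to the length of the shortest list, the ratio was 0.959 (exact permutation p = 0.33). On the rest of chromosome 4 peaks covered 2465 and 1900 kb in the vehicle libraries and 2096 and 1942 kb in the dDAVP libraries. Both dDAVP values there lay between the vehicle values, and the window's share of covered length was not computed. Median peak width in the window was also lower in both dDAVP libraries, at 276 and 266 bp against 299 and 319 bp (exact permutation p = 0.33).

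Presence and absence of regions gave little more. Regions held by the vehicle pair alone numbered 34 (3.32%), against 3.35% of all regions of the genome, and those held by the dDAVP pair alone 25 (2.44%), against 1.61%. Of patterns that cross the treatments, 40 regions were only in vehicle replicate 1 and dDAVP replicate 1 (3.90%, against 8.79% in the genome). In vehicle replicate 2 and dDAVP replicate 2 only there were 29 (2.83%, against 1.19%). A further 32 were only in vehicle replicate 1 and dDAVP replicate 2 (3.12%, against 3.17%). The last 12 were only in dDAVP replicate 1 and vehicle replicate 2 (1.17%, against 1.57%). With only the widest peaks of each library, to the length of the shortest list, the order of the counts turned, to 12 vehicle-only and 29 dDAVP-only regions. Leaving out 1 of the 4 libraries at a time gave 64 to 125 vehicle-only and 51 to 89 dDAVP-only regions. Such a rise follows from the rule itself, since fewer lists then have to lack a peak or to hold it. Zinc finger genes held 14 of the vehicle-only and 13 of the dDAVP-only regions, and the spaces 17 and 11.

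Most of these regions were narrow. The widest vehicle-only region, chr4:146096530-146097277, ended 35 bp before the start of Zfp987 and took in its ATTGGGCG letters in vehicle replicate 2. It was covered over 164 bp in vehicle replicate 1 and 748 bp in vehicle replicate 2. The next were chr4:147606359-147607044, 4.89 kb from Zfp979 (447 and 382 bp), chr4:146478348-146478798 in the pseudogene Vmn2r-ps16 (451 and 368 bp) and chr4:147190643-147191172 inside Zfp978 (530 and 207 bp). The widest dDAVP-only regions lay inside Zfp980 (chr4:145695183-145695974, 258 and 705 bp), inside Zfp984 (chr4:147802389-147803047, 659 and 179 bp), in Vmn2r-ps17 (chr4:146213018-146213528, 511 and 201 bp) and inside Zfp933 (chr4:147839293-147839865, 86 and 551 bp). In several of these regions 1 replicate was far wider than the other.

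Among regions present in every library, width was compared in 1 limma model over 88231 regions of the genome. No region of the 458 in the cluster passed an adjusted p of 0.05, and none did genome-wide (0%). At an unadjusted p under 0.05 there were 14 in the cluster (3.06%), 6 of them wider after dDAVP, against 5.28% of all regions tested. The median log2 difference, dDAVP minus vehicle, was -0.01 in the cluster and 0.04 over all regions, and 225 of 458 were wider after dDAVP. The lowest p belonged to chr4:147779468-147779817, inside Zfp984, which was covered over 72 and 104 bp with vehicle and over 319 and 317 bp with dDAVP (log2 difference 1.89, SE 0.36, limma adjusted p = 0.870). Next came chr4:147609608-147610603, between Zfp985 and Zfp979, with 995 and 859 bp against 389 and 341 bp (log2 difference -1.27, SE 0.28, limma adjusted p = 0.870). In both the treatments do not overlap, and neither passed the test.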

How the data were processed

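ATAC-seq libraries of 4 samples were analysed, 2 with vehicle and 2 with dDAVP, grouped by their labels. The authors deposited 1 peak list per library, holding chromosome, start and end (mm10) and no count, score or p-value, so read depth and peak height are unknown. Tools named in the submitters' processing notes are MACS2, Bowtie2, Picard, SAMtools, cutadapt and bedtools, without versions or settings, and the rule for reads that fit several places is not given in the sources used here.

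Peaks of the 4 lists that overlapped by 1 bp were merged into regions with Python 3.11.15 and pandas 2.3.3. Densities place a region by its midpoint, which leaves 1024 of the 1025 in the window, and take chromosome 4 from its first to its last peak. Genes, starts and promoters came from RefSeq tables of GRCm38.p6, the assembly that mm10 names. Zinc finger genes were taken by symbol (Zfp and Rex2), since no protein table was at hand for a search of finger patterns. All 28 coding genes of the window were eligible to be named, with the 10 widest regions, the 4 widest of each treatment-only pattern and the 3 longest stretches without a peak. Log2 covered width of regions in all libraries was quantile-normalized and tested with limma 3.58.1 in R 4.3.3, with Benjamini-Hochberg adjustment, and the code was checked on simulated data. Single values per library were compared by exact two-sided permutation. The start base inside a peak, and both outermost ends of the 17 genes, are alternatives chosen after seeing the data. The window, the members and the gene lists were chosen with earlier results of these data known.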

Additional observations from a re-analysis of the deposited data

How the results depend on the processing

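Of 53 alternatives computed for 7 results, 34 kept the result. For ratios between the treatments that means the same direction, and for densities and counts a value near the main one. The others were changes of size, except that some for the ratio of peak numbers reversed its direction. The ratio of peak numbers (0.964) turned to 1.05 as a share of chromosome 4 and to 1.06 with the widest peaks of each library, to the 205771 of the shortest list. It ran from 0.925 to 1.01 leaving out each library in turn. Vehicle-only and dDAVP-only regions (34 and 25) went to 12 and 29 with the widest peaks, which turns their order, to 20 and 10 with peaks at least as wide as their library's median, and to 47 and 46 where peaks had to share 50% of each other's length. Leaving out libraries gave 64 to 125 and 51 to 89, since fewer lists then have to lack a peak or to hold it. The density ratio (7.84) was 4.40 against the distal part of chromosome 4, 9.30 for regions in all 4 libraries and 9.21 from the first to the last zinc finger gene, and 7.50 to 8.31 leaving out libraries. Start peaks in all 4 libraries (12 of 13 genes) fell to 6 with the start base inside a peak, an alternative chosen after seeing the data, and 16 of 17 genes had a peak within 1 kb of either outermost end. The cause of the changes with the share of chromosome 4, the widest peaks, the median width and the overlap was not tested. By width, same-numbered libraries were not shown to pair (correlation of their width deviations 0.0969 over all regions and 0.0556 in the window). That check covers only normalized widths of regions present in all 4 libraries. List lengths did go with replicate number, at 393956 (vehicle) and 291454 (dDAVP) in replicate 1 and 206972 and 205771 in replicate 2. Whether the replicates differ as batches was not tested. With the replicate block the ratio of numbers was 0.965 and limma called 0 regions, with 19 in the window at an unadjusted p under 0.05. The lists give no depth, so a missing peak is one not called and not a closed site. No genome was used, so gaps in the assembly and the uniqueness of sequence outside promoters were not measured.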

Other observations

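The libraries differed less in the window, with at least 760 peaks in each, than in other peak-rich stretches. Of 866 stretches of 3 Mb tiling the genome, 108 others had at least 500 peaks in every library, and their ratio of the highest to the lowest library had a median of 1.77, with none at or below the 1.09 of the window. Only 4 of the 866 held as many regions present in all 4 libraries as the window's 458, the most being 611. Among whole chromosomes the X had the same ratio of 1.09, with 2800, 2646, 2576 and 2649 peaks (vehicle replicate 1, dDAVP replicate 1, vehicle replicate 2 and dDAVP replicate 2).

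Of the 152 genes with ATTGGGCG in the genome, 22 were on chromosome 4, and these include the 12 of the promoter family. Chromosome 2 had 15 and chromosome 11 had 13. Zfp987 and Zfp534 were the 2 of the 12 family promoters without the full GGGCGG, and in each the letters lay inside a peak in vehicle replicate 2 only.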
